A study of Mus musculus with 2 samples.

Results

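Vascular smooth muscle cells are the contractile cells wrapped around arteries, arterioles and veins. In 2 single-cell libraries of injured mouse spinal cord, 65 of 5145 kept cells were taken as vascular smooth muscle: 33 of 2975 in the library treated with an HDAC3 inhibitor and 32 of 2170 in the library treated with vehicle. A barcode was kept if it had at least 500 genes, at least 1000 UMIs (unique molecular identifiers, each counting 1 captured transcript) and at most 15% of its UMIs in mitochondrial genes. A kept cell was then selected on 6 genes: at least 2 UMIs of Myh11, at least 20 of Acta2 and Tagln together, at most 5 of the endothelial gene Cldn5, and at most 10 of the microglial genes C1qa and C1qb together. Since the members were chosen by these counts, the levels of Acta2, Tagln and Myh11 are a description of the choice and not a result.

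Both libraries came from spinal cord of mice 5 days post injury, prepared with the 10x Genomics 3' kit of version 3, which counts the 3' ends of transcripts. The labels do not give the compound, its dose, the vehicle, the strain, sex or age of the mice, the level of the injury or the number of animals, so it is not known whether a library holds 1 animal or a pool. With 1 library per group no test between treatments could be made. Every interval below covers counting error at 95% and not the difference between animals. Fewer cells of a type in a cord and fewer that survive dissociation cannot be told apart in such data.

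Smooth muscle shortens when calcium entering through membrane channels or released from the sarcoplasmic reticulum binds calmodulin, which activates myosin light chain kinase (Mylk). Phosphorylated myosin (heavy chain Myh11, light chains Myl9 and Myl6) then pulls on thin filaments of smooth muscle actin (Acta2), tropomyosin (Tpm1, Tpm2), caldesmon (Cald1) and calponin (Cnn1), which are anchored to the membrane and to dense bodies. Pericytes, the mural cells of capillaries, lie on the same vessel tree, share the receptors Pdgfrb and Notch3 with smooth muscle, and carry little of this apparatus. In injured vessels smooth muscle can lose contractile proteins and take up matrix production, a change known as phenotypic modulation.

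The 33 members of the HDAC3 inhibitor library held 299788 UMIs and the 32 of the vehicle library 308737. A member had a median of 9090 UMIs (3465 to 18516) and 2754 genes in the first, and 9235 UMIs (4254 to 17330) and 2932.5 genes in the second, so depth was alike. The members made up 1.11% (0.765 to 1.55) of kept cells with the inhibitor and 1.47% (1.01 to 2.08) with vehicle. The ratio of these shares was 0.752 (0.448 to 1.26), an interval that includes equal shares. The 2 libraries had 10 cell barcodes in common, of which 4 were kept in both and none was a member.

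The rule cut through few cells. The member with the least Myh11 had 3 UMIs in each library, against medians of 23 and 22. The lowest sum of Acta2 and Tagln was 28 UMIs with the inhibitor and 51 with vehicle, far under the medians of 223 and 222.5. Just outside the rule lay 1 kept cell in each library with a single Myh11 UMI and enough Acta2 and Tagln, 5 in each library with none, and 3 cells of the inhibitor library with 10 to 19 UMIs of Acta2 and Tagln. The Cldn5 limit alone removed 4 cells and the C1q limit alone removed 1, all from the inhibitor library.

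The label was checked against markers of other cells. No UMI of the endothelial genes Pecam1 and Cdh5 was counted in any member, nor of the fibroblast genes Lum and Pdgfra, nor of Acta1, the actin of skeletal muscle. Over whole marker lists some UMIs were counted. The 17 endothelial markers summed to 754 and 823 CPM with the inhibitor and vehicle, with 8 and 7 of them at 0, against 7622 and 7280.0 CPM in the other kept cells. The 13 fibroblast markers summed to 654 and 994 CPM with 8 of them at 0 in each library, against 803 and 930 CPM in pericytes and 742 and 578 CPM in the other kept cells. The part of fibroblast transcripts in the results was not tested. Members held at most 1 Cldn5 UMI and at most 3 of C1qa and C1qb. The member rule sets no limit on pericyte markers. All 22 of them were counted in members of both libraries, 8473 and 10368 CPM in sum. Pericytes, which were chosen on some of these genes, had 49347 and 50305 CPM. Single members reached 17133 and 13283 CPM of Rgs5, above its level in the summed pericytes given below. The part of pericytes or mixed barcodes among the members was not tested. Neutrophil genes summed to 70.0 CPM (UMIs of a gene scaled to a common total for the summed cells) with the inhibitor and 172 CPM with vehicle. The other arteriolar smooth muscle genes in the list, such as Pln, Sncg, Mustn1, Map3k7cl and Crip1, were present in both libraries. Of 17 measured genes of that list outside the rule, 14 were at least 2-fold higher than in pericytes in both libraries and 1, Casq2, at least 2-fold lower. Over all genes of that comparison, described below, the shares were 7.47% and 11.6%. The pericytes were chosen for low Acta2, Tagln and Myh11, so this count describes the cells that the rules select.

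The genes of the rule were counted in every member. Acta2 summed to 17642 CPM in the inhibitor library and 14867 CPM in the vehicle library. Tagln, an actin-bundling protein, stood at 13843 and 11988 CPM, and Myh11, the smooth muscle myosin heavy chain, at 2732 and 2513 CPM. Together the 3 genes gave 3.42% of all UMIs of the members with the inhibitor and 2.94% with vehicle. Single cells spread widely and the libraries overlapped over nearly all of that spread. Acta2 ran from 1827 through a median of 14553 to 36811 CPM over the 33 inhibitor cells, and from 2976 through 14415 to 34403 CPM over the 32 vehicle cells. For Tagln the lowest, median and highest cells had 1882, 11843 and 29493 CPM with the inhibitor and 1629, 10766 and 30803 CPM with vehicle. For Myh11 they had 387, 2453 and 4930 CPM against 310, 2460 and 4914 CPM, so the medians of the libraries were alike for all 3 genes. Acta2 lies on chr19:34241090-34255590 of the minus strand, Tagln on chr9:45929619-45936058 and Myh11 on chr16:14194535-14291372, also on the minus strand (mm10, GENCODE M21).

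**Figure D1:**
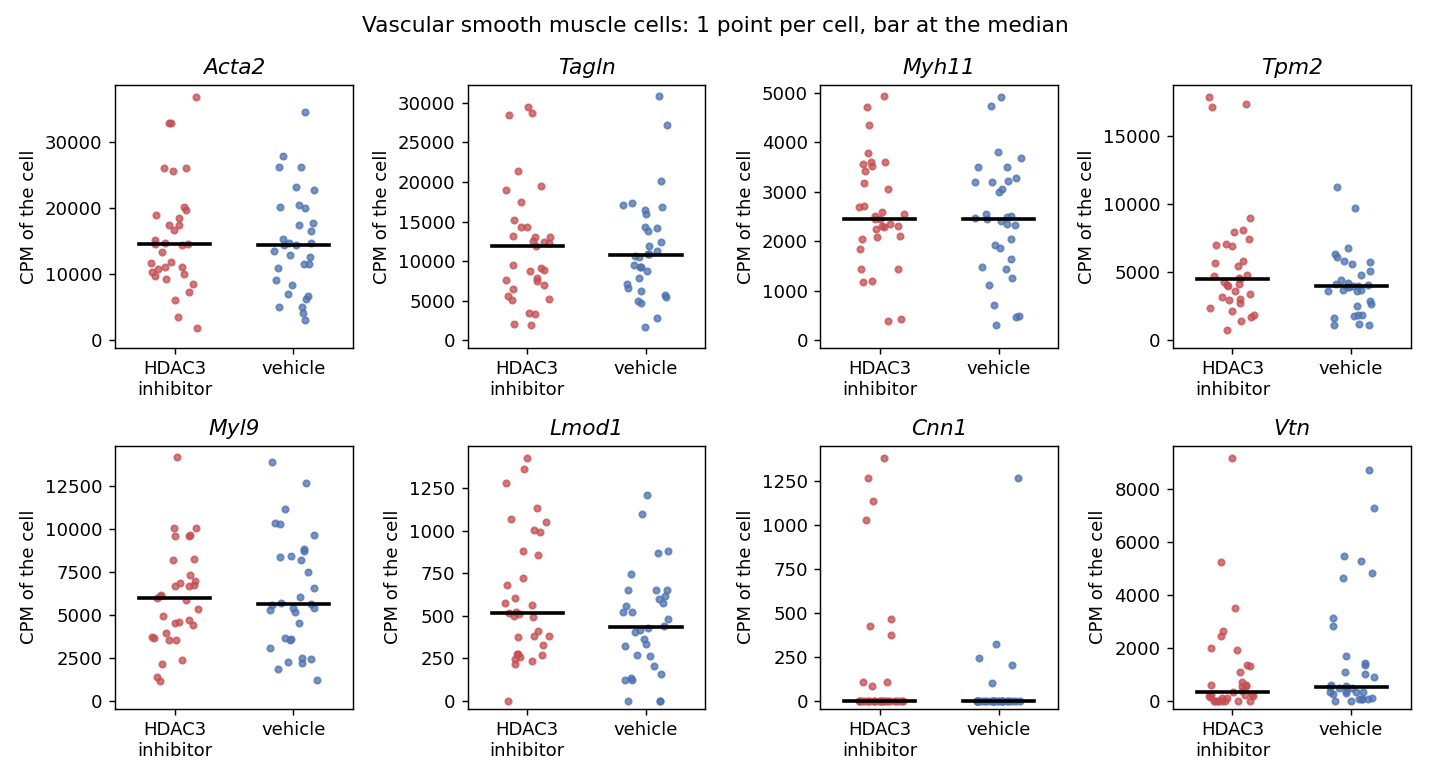
Level of 8 genes in each vascular smooth muscle cell, in CPM of that cell on linear axes from 0, for the 33 cells of the HDAC3 inhibitor library and the 32 of the vehicle library; bars mark medians. The Acta2 medians of 14553 and 14415 CPM nearly coincide, Cnn1 is at 0 in most cells of both libraries, and Vtn is spread over a long tail.

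Contractile and anchoring genes separated smooth muscle from pericytes. The 131 pericytes set beside the members (83 with the inhibitor, 48 with vehicle) were kept cells chosen by at least 3 UMIs of Kcnj8, Abcc9, Higd1b and Atp13a5, at least 1 of Pdgfrb, at most 1 of Myh11, under 20 of Acta2 and Tagln, the same Cldn5 and C1q limits and at most 5 of the fibroblast genes Dcn and Lum. The 13 genes of either rule are left out of every count and median here. Of 2022 other genes with at least 100 UMIs over the 4 sums, 151 (7.47%) were at least 2-fold higher in smooth muscle in both libraries and 235 (11.6%) at least 2-fold lower. Of 35 such genes for the thin filament, myosin and the anchors, 17 were at least 2-fold higher in both libraries and 3 at least 2-fold lower. Their median log2 ratio was 1.34 with the inhibitor and 1.10 with vehicle, beside −0.04 and −0.06 over all genes. The cells were sorted by genes that travel with this apparatus, so these counts describe the cells that the rules select.

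Thin filament genes split into those high over pericytes and those level with them. Tpm2 stood at 6625 and 4392 CPM in smooth muscle of the inhibitor and vehicle libraries against 389 and 280 CPM in pericytes, 17.0 and 15.7 times as much. Tpm1 stood at 3266 and 2633 against 422 and 386 CPM, and Lmod1, a leiomodin that nucleates actin filaments, at 684 and 476 against 23.2 and 27.6 CPM. Cnn1, which binds actin and restrains myosin, had no UMI in any pericyte, at least 37.6-fold and at least 9.04-fold less than in smooth muscle against a floor of 3 UMIs over the summed pericytes. Caldesmon did not follow them. Cald1 was at 3039 and 3016 CPM in smooth muscle and 3178 and 2923 CPM in pericytes, and the cytoplasmic actin Actb was 1.49 and 1.27 times its pericyte level.

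Among myosin genes the regulatory light chain Myl9 was at 6501 and 6209 CPM in smooth muscle and 1720 and 1745 CPM in pericytes. The essential light chain Myl6 was 5.46 and 4.95 times its pericyte level, and the kinase Mylk 3.96 and 2.34 times. The nonmuscle heavy chain Myh9 went the other way, at 117 and 107 CPM in smooth muscle and 479 and 508 CPM in pericytes. The nonmuscle light chain Myl12a was likewise lower, at 0.429 and 0.418 times. Of 6 measured myosin genes, 3 were at least 2-fold higher in both libraries and 2 at least 2-fold lower. The shares over all 2022 genes were 7.47% and 11.6%.

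Anchors and intermediate filaments followed, with 10 of 19 measured anchor genes at least 2-fold higher in both libraries and 1 lower. For all 2022 genes these shares were 7.47% and 11.6%. Csrp1, a LIM protein of the actin cytoskeleton, had 1785 and 1270 CPM in smooth muscle and 12.9 and 19.7 CPM in pericytes. Csrp2 stood at 580 and 392 against 18.0 and 15.8 CPM. Pdlim3, a protein of alpha-actinin junctions, had 324 and 272 CPM against 2.57 and 0 CPM. The intermediate filament protein synemin (Synm) was 44.7 times (11.9 to 376) and 34.5 times (5.87 to 1396) its pericyte level, wide intervals that rest on 2 and 1 pericyte UMIs. Vimentin (Vim) stood at 3703 and 2854 CPM against 265 and 217 CPM. Integrin Itga1, a collagen receptor, was the anchor gene at least 2-fold lower in both libraries, at 240 and 340 CPM against 850 and 796 CPM.

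**Figure D2:**
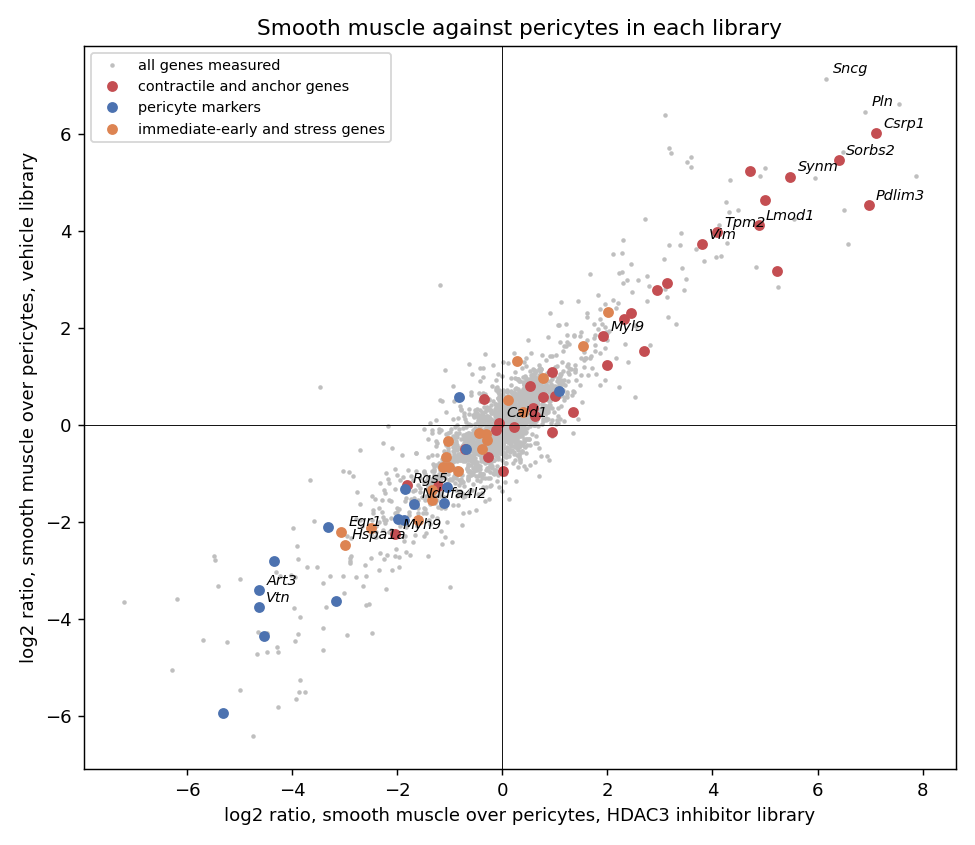
Each point is a gene with at least 100 UMIs, placed by the log2 ratio of its CPM in smooth muscle over pericytes in the HDAC3 inhibitor library (horizontal) and in the vehicle library (vertical); a sum of 0 was set to the floor of 3 UMIs. Contractile and anchor genes (red) spread to the upper right with Csrp1, Pdlim3 and Lmod1, Cald1 lies near 0 in both, and pericyte markers (blue) and several stress genes (orange) lie to the lower left.

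The promoters of contractile genes are shown because the CArG box, the binding site of serum response factor, is the classic element of these genes. A strict CArG box (CC, then 6 letters that are all A or T, then GG; it reads as a CArG box on both strands) was sought in RefSeq promoters of GRCm38.p6, each 250 bases before to 50 after a start site. It was present in 12 of 52 promoters (23.1%) of the 43 matched genes out of 51 in the rule, thin filament, myosin and anchor lists, and in 535 of 32851 promoters (1.63%) of all genes. The 12 include a pair of overlapping Ldb3 windows that hold the same box, and the promoters of Acta1 and Actc1, which had no UMI in any member. Myh11 and Tagln were among the 8 genes with no match in the promoter table and were not searched. None of 25 promoters of contraction control genes and none of 22 promoters of pericyte markers held it. A looser form, with at least 5 A or T among the 6 letters, was present in 18 of the 52 (34.6%) and in 9.98% of all promoters. Capitals mark strict and looser matches in the 4 promoters printed 5′ to 3′.
Acta2 (chr19:34255324-34255623, minus strand): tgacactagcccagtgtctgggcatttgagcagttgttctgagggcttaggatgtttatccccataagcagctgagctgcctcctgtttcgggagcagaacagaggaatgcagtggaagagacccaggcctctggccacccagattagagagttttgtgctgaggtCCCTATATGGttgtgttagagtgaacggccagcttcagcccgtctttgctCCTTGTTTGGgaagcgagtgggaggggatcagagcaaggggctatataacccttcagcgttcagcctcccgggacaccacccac
Myl9 (chr2:156775214-156775513, plus strand): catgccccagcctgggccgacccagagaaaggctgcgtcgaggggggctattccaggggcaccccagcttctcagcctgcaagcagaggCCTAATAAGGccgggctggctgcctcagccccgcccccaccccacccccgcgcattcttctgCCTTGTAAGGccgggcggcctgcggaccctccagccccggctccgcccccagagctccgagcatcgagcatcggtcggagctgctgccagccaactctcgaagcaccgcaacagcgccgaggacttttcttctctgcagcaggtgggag
Myl6 (chr10:128492960-128493259, minus strand): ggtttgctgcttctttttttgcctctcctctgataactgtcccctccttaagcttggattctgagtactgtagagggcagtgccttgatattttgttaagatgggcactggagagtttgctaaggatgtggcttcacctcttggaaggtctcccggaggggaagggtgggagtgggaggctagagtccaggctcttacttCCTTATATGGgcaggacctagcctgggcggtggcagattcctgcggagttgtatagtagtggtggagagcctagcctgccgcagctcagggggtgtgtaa
Tpm2 (chr4:43523505-43523804, minus strand): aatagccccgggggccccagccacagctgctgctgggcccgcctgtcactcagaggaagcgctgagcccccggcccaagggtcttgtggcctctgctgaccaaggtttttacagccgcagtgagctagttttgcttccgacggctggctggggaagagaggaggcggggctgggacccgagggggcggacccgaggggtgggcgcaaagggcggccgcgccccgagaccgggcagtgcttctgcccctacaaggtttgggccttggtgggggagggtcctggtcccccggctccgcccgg
The Acta2 window held a pair of looser boxes and no strict one, starting 84 and 34 bases before the start site. Myl9 held a strict box at 161 and a looser one at 99 bases before it, and the Myl6 window printed a strict box at 50 bases before it, while a second Myl6 promoter (chr10:128493837-128494136) held neither form. Tpm2, among the genes closest to Acta2 from cell to cell, had neither form in this window. These are matches of letters and not bound sites.

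Regulators of contraction were mixed. Of 19 measured genes in that list, 6 were at least 2-fold higher in smooth muscle in both libraries and 3 lower. All 2022 genes had shares of 7.47% higher and 11.6% lower, so the count of lower regulators was not far from that share. The medians of the list were 0.66 and 0.63 on the log2 scale. The myosin phosphatase subunit Ppp1r12b, which permits relaxation, stood at 387 and 301 CPM against 23.2 and 27.6 CPM in pericytes, and Ppp1r12a was 3.91 and 3.75 times its pericyte level. The kinase Rock1, which restrains that phosphatase, was 2.94 and 3.01 times its pericyte level. The phosphodiesterase Pde3a, which breaks down cyclic nucleotides, was 4.61 and 5.66 times as high. Rhob, a small GTPase, was lower at 170 and 194 against 1275 and 1292 CPM, and the G-protein brakes Rgs4 (777 and 819 against 1784 and 2195 CPM) and Rgs5 (3039 and 3573 against 10941 and 8853 CPM) were lower too.

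Calcium handling differed by gene. Phospholamban (Pln), which restrains the calcium pump of the sarcoplasmic reticulum, had 921 and 1033 CPM in smooth muscle and no UMI in pericytes, at least 119-fold and at least 87.4-fold more. The pump itself, Atp2a2, was 2.57 and 3.55 times its pericyte level, and the plasma membrane pump Atp2b4 4.45 and 5.31 times. Calsequestrin 2 (Casq2), a calcium store protein that is in the list of arteriolar smooth muscle genes, was lower instead, at 90.1 and 110 CPM against 458 and 441 CPM. Of 10 measured genes in the list of ion channels and calcium handling, 3 were at least 2-fold higher in both libraries and 3 lower, beside 7.47% and 11.6% of all genes. Their median log2 ratios were −0.20 and −0.29.

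Receptors for vasoactive signals also split. Ramp1, a subunit of the receptor for the dilator CGRP, had 233 and 253 CPM in smooth muscle and 2.57 and 0 CPM in pericytes, and Npy1r, a receptor for neuropeptide Y, 233 and 330 against 41.2 and 78.8 CPM. The thromboxane receptor Tbxa2r was lower, at 93.4 and 130 against 407 and 386 CPM. Of 7 measured receptors, 3 were at least 2-fold higher in both libraries and 1 at least 2-fold lower, with median log2 ratios of −0.65 and −0.55. Beside 7.47% and 11.6% of all genes, the count of lower receptors was near the share of all genes.

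By the smaller of the changes in the libraries, the genes highest over pericytes were Palld, Pln, Sncg, Csrp1, Asb2, Sorbs2, Fbxl22, Synm, Rcan2 and Nkd1. Palladin (Palld), an actin-bundling scaffold, stood at 480.3 and 382 CPM against 2.57 and 3.94 CPM, and Sncg, a synuclein, at 550.4 and 550.6 against 7.72 and 3.94 CPM. The lowest were Anpep, Ptn, Rgcc, Uchl1, Plxdc1, Pla1a, Plxdc2, Gng2, Slc6a20a and Ggt1. The growth factor pleiotrophin (Ptn) was at 50.04 and 133 CPM in smooth muscle and 3906 and 4397 CPM in pericytes. Ggt1, a glutathione-cleaving enzyme, had no UMI in smooth muscle, at least 19.6-fold and at least 23.9-fold less than in pericytes.

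Of 16 measured pericyte markers that neither rule used, 13 were at least 2-fold lower in smooth muscle in both libraries and none was at least 2-fold higher. Their medians were −1.93 and −1.95. Over all 2022 genes, 11.6% were lower and 7.47% higher. Vitronectin (Vtn), a matrix glycoprotein, stood at 761 and 1587 CPM in smooth muscle against 18949 and 21414 CPM in pericytes. Immediate-early and heat-shock genes were lower in smooth muscle on balance: of 21 measured, 6 were at least 2-fold lower and 2 higher in both libraries. The count of higher stress genes was near the 7.47% of all genes, and 11.6% of all genes were lower. The medians of this list were −0.84 and −0.50. The heat-shock gene Hspa1a was at 801 and 1338 CPM against 6430 and 7383 CPM, and Egr1 at 337 and 476 against 2817 and 2187 CPM. All 13 genes of the mitochondrial genome had more CPM in smooth muscle in both libraries, with medians of 0.92 and 0.81. The share of UMIs in mitochondrial genes differed to match, with a median of 7.47% and 8.13% per smooth muscle cell against 3.70% and 4.48% per pericyte, and its part in these ratios was not tested.

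Depth and neutrophil transcripts also differed between the cell types. Pericytes had medians of 4648 and 5152 UMIs, and neutrophil genes summed to 6337 and 1994 CPM in them. A single pericyte in each library held 97.6% and 88.7% of the S100a8 UMIs, and without that pair of cells 154 genes were at least 2-fold higher in smooth muscle and 233 lower. Thinned to 2000 UMIs per cell, Vtn was seen in 57.6% of smooth muscle cells with the inhibitor and 68.8% with vehicle, in all 78 and 47 pericytes left, and in 0.210% and 0.279% of C1q-rich cells that should lack it. Unthinned, those shares of smooth muscle cells were 75.8% and 93.8%, and the C1q-rich cells had medians of 15153 and 15896 UMIs. The C1q-rich cells were chosen by at least 20 UMIs of C1qa and C1qb, and by no UMI of Pdgfrb, Rgs5 or Myh11. That choice leaves out cells with stray mural transcripts and so lowers their share with Vtn in advance. The part of stray transcripts in the Vtn of smooth muscle cells was not tested.

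Within smooth muscle most contractile genes had somewhat more CPM with the inhibitor. For several the ratio was lower without 3 vehicle cells that are set apart below. The inhibitor library also held 5 of 6 members without an Rgs5 UMI, which were high in Acta2, and their part was not tested. Over 895 genes with at least 100 UMIs, 38 (4.25%) were at least 1.5-fold higher with the inhibitor and 32 (3.58%) at least 1.5-fold lower, with a median log2 ratio of 0.04. Of the 895 genes, 504 had more CPM with the inhibitor and 391 less. Of 30 measured thin filament, myosin and anchor genes, 22 had more CPM with the inhibitor and 8 less, with a median of 0.17. Those past 1.5-fold were Cnn1, Tpm2 and Synm above and Tpm4 and Des below, 3 and 2 of 30. The Acta2 ratio was 1.19 (1.14 to 1.23), the Tagln ratio 1.15 (1.10 to 1.21) and the Myh11 ratio 1.09 (0.984 to 1.20), all values that the choice of members touches.

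Tpm2 had the tightest interval of the 3 genes above 1.5-fold, at 1.51 (1.41 to 1.62). Its lowest, median and highest cells had 774, 4492 and 17918 CPM with the inhibitor and 1096, 3960 and 11301 CPM with vehicle. The medians were near each other and the upper tail was longer with the inhibitor. Cnn1 had a ratio of 2.72 (1.80 to 4.19), from 87 UMIs in 10 cells against 33 UMIs in 5 cells. A single vehicle cell held 66.7% of the vehicle UMIs of Cnn1, and without the top cell of each library the ratio was 6.07 (3.18 to 12.7). The share of cells with a Cnn1 UMI was 30.3% and 15.6%, and 18.2% and 3.13% after thinning. Synm stood at 230 and 136 CPM, a ratio of 1.69 (1.14 to 2.55).

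Lower with the inhibitor were Tpm4, a tropomyosin of nonmuscle filaments, and desmin (Des), the muscle intermediate filament. Tpm4 was at 160 and 262 CPM, a ratio of 0.610 (0.418 to 0.883), which turned direction with cells thinned to 2000 UMIs (log2 ratio 0.37) and was 0.730 (0.476 to 1.11) without the top cell of each library. Des was at 133 and 253 CPM, a ratio of 0.528 (0.351 to 0.783), with UMIs in 15 of 33 and 16 of 32 cells. Genes with ratios close to 1 included Cald1 at 1.01 (0.919 to 1.11), Myl9 at 1.05 (0.983 to 1.12) and Actb at 1.01 (0.945 to 1.07). Of the 19 regulators of contraction, 9 had more CPM with the inhibitor and 10 less, beside 504 and 391 of all 895 genes. None was past 1.5-fold, and their median was −0.05.

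**Figure D3:**
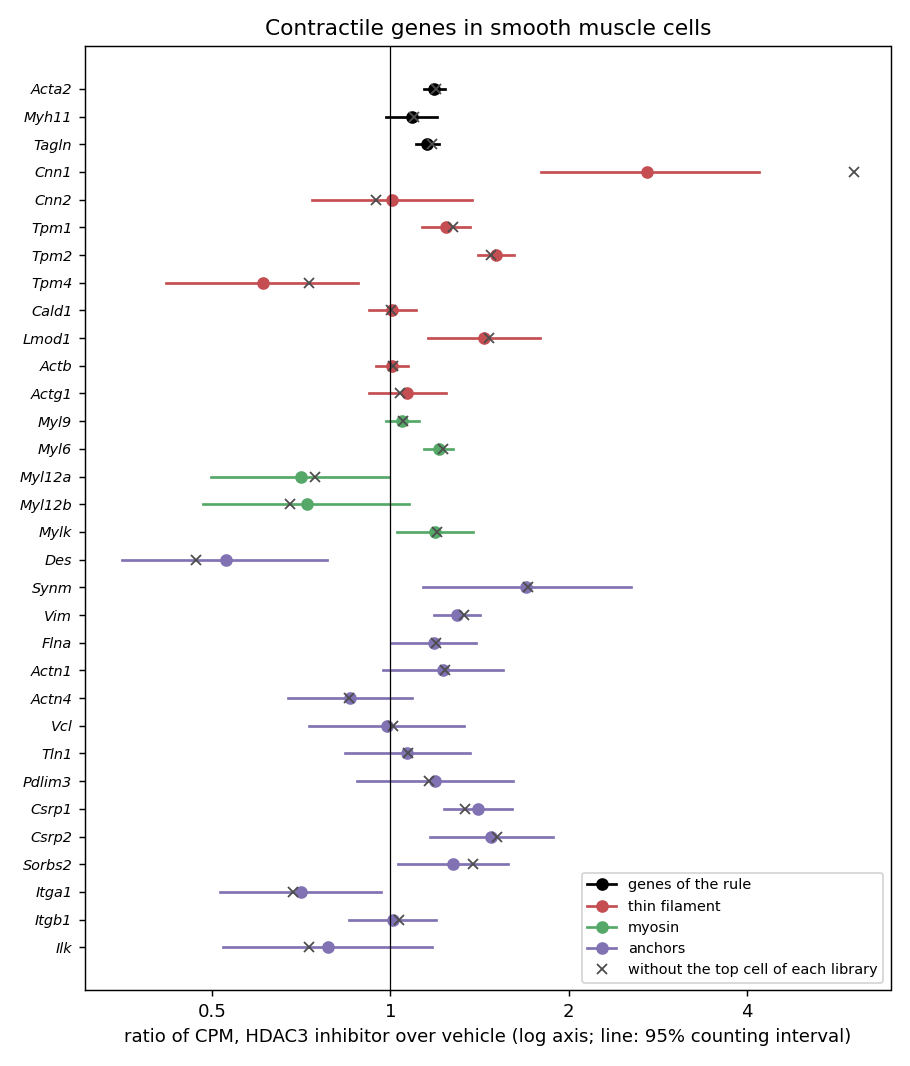
Ratio of summed CPM in smooth muscle cells, HDAC3 inhibitor over vehicle, on a log axis, for the rule genes and 29 of the 30 measured thin filament, myosin and anchor genes; lines are 95% counting intervals, and crosses leave out the cell with the most UMIs of that gene in each library. Cnn1, Synm and Tpm2 lie highest and Des and Tpm4 lowest, and the Cnn1 cross lies far to the right of its point.

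The 10 genes highest with the inhibitor were Ptgis, Klf2, Cnn1, Crispld2, Sdc4, Pabpc1, Klf9, Irf1, Nfe2l1 and Klf4, of which Irf1 turned direction with cells thinned to 2000 UMIs (log2 ratio −0.78). Prostacyclin synthase (Ptgis), which makes a vessel-relaxing prostaglandin, had 88 UMIs in 11 cells against 26 in 9 cells, a ratio of 3.49 (2.23 to 5.63). The transcription factor Klf2 stood at 654 and 240 CPM with UMIs in 22 and 19 cells, a ratio of 2.73 (2.08 to 3.61), and the related Klf4 at 397 and 214 CPM, 1.86 (1.36 to 2.55). Klf2 is known for its response to blood flow in endothelium, and Klf4 as a repressor of contractile genes in cultured smooth muscle. The cells of the libraries overlapped for Ptgis and Klf2, both at 0 in some cells of each library. Among the 10 lowest were Cxcl1, Bst2, Tmsb10, Phlda1, Meg3, Isg15, Cebpd, Vtn and Tmem176b.

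Many of the genes lower with the inhibitor had much of their vehicle UMIs in 3 cells. Chosen after the values were seen, members with at least 20 UMIs of Tmsb10, which encodes an actin monomer-binding thymosin, numbered 3 of 32 with vehicle (35, 48 and 56 UMIs) and 0 of 33 with the inhibitor, where the highest cell had 5. They held 11.3% of the vehicle members' UMIs but 95.1% of Cxcl1, 72.4% of Meg3, 62.7% of Isg15 and 57.8% of Bst2. They held 36.9% of Vtn, 35.5% of Phlda1, 20.5% of Des and 3.15% of Hspa1a. The neutrophil chemokine Cxcl1 had 2, 20 and 173 UMIs in the 3 cells and 10 UMIs in the other 29 together. The interferon-induced genes Isg15 and Bst2 were 13.2 times (8.83 to 19.9) and 10.7 times (6.92 to 16.7) as high in the 3 cells as in the 29.

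The same 3 cells differed from the other vehicle cells in contractile and matrix genes, in both directions. Their Acta2 level was 5034 CPM against 16123 CPM in the other 29, Myh11 was 629 against 2754 CPM, and Pln had no UMI against 1165 CPM. Of contractile genes outside the rule, Tpm2 was 0.401 times (0.308 to 0.513), Myl9 0.431 times (0.349 to 0.527) and Mylk 0.733 times (0.483 to 1.07) the level of the other 29. Tpm4 at 8.86 times (5.59 to 14.1) and Des at 2.02 times (1.09 to 3.55) were higher in the 3 cells. Matrix genes split as well. The matricellular gene Sparc was at 5520 against 920.5 CPM, the collagens Col4a1 at 2546 against 398 CPM and Col3a1 at 1087 against 69.4 CPM, and Vtn at 5177 against 1129 CPM. Sparcl1 at 85.8 against 3631 CPM and Mgp at 28.6 against 504 CPM were lower in them. No UMI of Pecam1, Cdh5, Lum, Dcn, Pdgfra or Cldn5 was counted in them, and their mitochondrial share was 1.80% to 3.40%. Other fibroblast markers were higher in them, Serping1 at 1116 against 164 CPM and Col3a1 as given above. Of pericyte markers, Rgs5 was at 7608 against 3057 CPM, Ifitm1 at 1630 against 40.2 CPM and Pdgfrb at 629 against 314 CPM. Higd1b, at 715 against 785 CPM, was not higher. Which type of cell these 3 are was not tested. The 3 cells were selected on a gene among the most different ones, so these contrasts carry no test. The other 29 had at most 10 Tmsb10 UMIs, but 1 of them lay near the 3 cells in several genes. It had Myh11 at 470, Tpm4 at 783 and Vtn at 5482 CPM and no Pln, with Sparcl1 at 783 CPM. That cell stays in the 29 in the ratios below.

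Against the other 29 vehicle cells, 16 genes in place of 32 were at least 1.5-fold lower with the inhibitor, and 34 in place of 38 at least 1.5-fold higher. Here 831 genes had at least 100 UMIs, in place of 895. Genes that fell under that filter, Bst2 and Phlda1 among them, left these counts. The ratio of Isg15 moved from 0.431 (0.298 to 0.613) to 1.02 (0.658 to 1.60), that of Meg3 from 0.379 to 1.22, that of Tmem176b from 0.503 to 1.20 and that of Cxcl1 from 0.121 to 2.19 (1.01 to 5.14). Tpm4 moved to 1.15 (0.738 to 1.81). Still below 1 with intervals that leave it out were Bst2 at 0.481 (0.265 to 0.847), Phlda1 at 0.502 (0.318 to 0.781) and Vtn at 0.674 (0.565 to 0.802). Of the genes named in this paragraph up to here, only Vtn kept at least 100 UMIs over the sums. Cxcl1 rested on 24 and 10 UMIs, Bst2 on 20 and 38, and Phlda1 on 33 and 60. The 24 Cxcl1 UMIs lay in 5 inhibitor cells, and 9 of the 10 vehicle UMIs lay in 1 cell. The interval of its ratio does not cover that spread between cells. Of the genes on the high side, Ptgis stayed at 3.09 (1.98 to 4.99) and Klf2 at 2.45 (1.87 to 3.25). Tpm2 fell to 1.41 (1.31 to 1.51), under 1.5-fold. Acta2 was at 1.09 (1.05 to 1.14), Tagln at 1.08 (1.04 to 1.13), Myh11 at 0.992 (0.897 to 1.10) and Myl9 at 0.980 (0.918 to 1.04). Above 1 with intervals that leave it out were also Tpm1 at 1.19 (1.08 to 1.31), Lmod1 at 1.31 (1.05 to 1.63) and Csrp1 at 1.34 (1.17 to 1.53). All these ratios keep 6 cells without an Rgs5 UMI, 5 with the inhibitor and 1 with vehicle. Their median Acta2 level was 32734 and 27871 CPM, against 12587 and 14406 CPM in members with Rgs5. Csrp1 ran from 3943 to 5574 CPM in the 5 inhibitor cells, beside a median of 830 CPM over all 33. The part of these cells in the ratios was not tested.

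**Figure D4:**
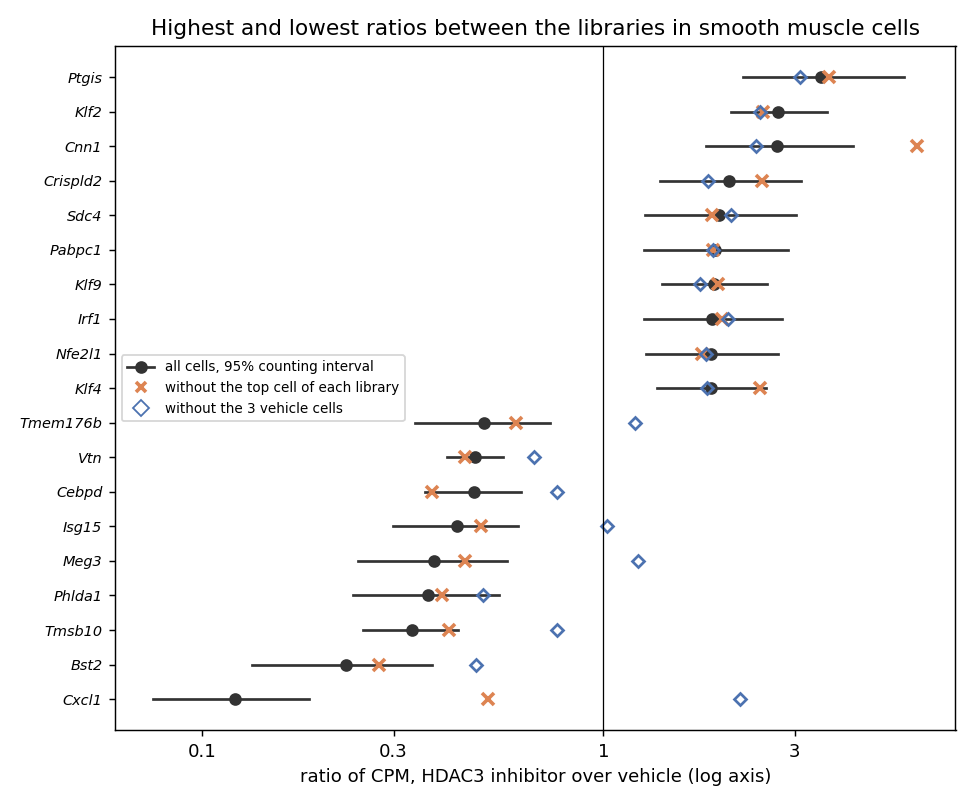
Ratio of summed CPM, HDAC3 inhibitor over vehicle, on a log axis, for the 10 genes with the highest and 9 of the 10 with the lowest ratios in smooth muscle cells; lines are 95% counting intervals, crosses leave out the cell with the most UMIs of that gene in each library, and diamonds leave out the 3 vehicle cells with at least 20 Tmsb10 UMIs. The diamonds stay near the points on the high side, while those of Cxcl1, Meg3, Isg15 and Tmem176b lie at or above 1.

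Of 7 measured interferon genes, 6 had less CPM with the inhibitor, beside 391 of all 895 genes. Their median was −0.50, and without the 3 vehicle cells, over the genes still measured, it was 0.11. Among matrix genes Sparcl1 stood at 4499.9 and 3229 CPM, a ratio of 1.39 (1.28 to 1.51) that was 1.24 (1.14 to 1.35) against the other 29 vehicle cells. Mgp, an inhibitor of vessel calcification, was at 690 and 450.2 CPM, a ratio of 1.53 (1.23 to 1.92) that was 1.37 (1.10 to 1.71), under 1.5-fold, against them. Sparc was at 897 and 1441 CPM, a ratio of 0.623 (0.533 to 0.726) that became 0.975 (0.818 to 1.16) against the other 29 cells. Hspa1a was at 801 and 1338 CPM, a ratio of 0.598 (0.508 to 0.703), and stayed at 0.548 (0.465 to 0.645) against them. The inhibitor's target, Hdac3, had 10 UMIs in the inhibitor library and 8 in the vehicle library, too few for a comparison. Its co-repressor Ncor1 was at 180 and 207 CPM, a ratio of 0.869 (0.594 to 1.27).

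Among the members, contractile genes and pericyte markers ran in opposite directions. With every member thinned to 2000 UMIs, the sum of Acta2 and Tagln ran from 10 through a median of 52 to 131 UMIs with the inhibitor and from 17 through 48.5 to 127 with vehicle. Over 378 genes seen in enough members, those whose level followed that sum most closely were Myl9, Tpm2, Dstn, Myl6 and Sparcl1, with a Spearman correlation of 0.79, 0.79, 0.73, 0.68 and 0.67 over 65 cells. Most opposed were Rgs5 at −0.70 and Vtn at −0.62. The summed UMIs of Cnn1, Tpm1, Tpm2, Lmod1, Smtn, Myl9 and Mylk had a correlation of 0.86 and those of the 22 pericyte markers −0.71 (−0.75 with the inhibitor, −0.64 with vehicle). Those 7 genes were picked by hand. Over the whole lists the correlation was 0.52 for the thin filament (0.35 with vehicle), 0.79 for myosin, 0.68 for the anchors and −0.41 for contraction control. Rgs5, at −0.70 by itself, counts both in the contraction control sum and in the pericyte marker sum. Its part in those values was not tested. Other lists followed the sum as closely as some of these. The mitochondrial genome had 0.52 (0.60 with vehicle) and immediate-early and stress genes −0.40, beside −0.16 for matrix and 0.06 for ion channel and calcium genes. All these sums share 1 total of 2000 UMIs per cell, so a large share for Acta2 and Tagln leaves less for other genes. Before thinning, UMIs per cell had a correlation with this sum of 0.75 in the inhibitor library and −0.01 in the vehicle library, and the part of depth was not tested.

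**Figure D5:**
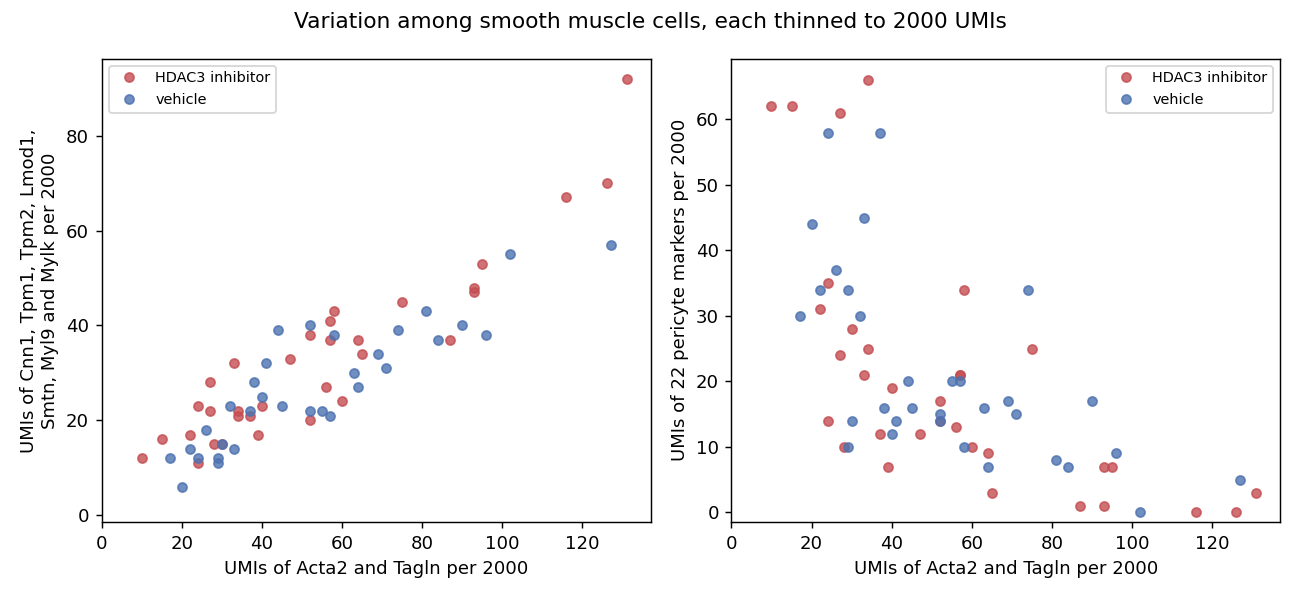
Each point is a smooth muscle cell thinned to 2000 UMIs; the horizontal axis is its UMIs of Acta2 and Tagln, and the vertical axes are its UMIs of 7 other contractile genes (left) and of 22 pericyte markers (right). The contractile sum climbs with Acta2 and Tagln, with a correlation of 0.86, while the pericyte markers run from 66 UMIs down to 0, and cells of both libraries lie along the same bands.

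Cells with Cnn1 lay toward high Acta2. The 15 cells with a Cnn1 UMI (10 with the inhibitor and 5 with vehicle) had a median Acta2 level of 25500 CPM, with a lowest of 14424 and a highest of 36811 CPM. In the 50 cells without it the median was 11743 CPM, between 1827 and 26224 CPM. The Vtn medians were 57.7 CPM in the first and 659 CPM in the second. Cells with Cnn1 were also deeper, with a median of 12413 against 7926 UMIs, and its part in these differences was not tested. Also high in Acta2 were 6 cells with no UMI of Rgs5, a gene seen in 28 of 33 and 31 of 32 members: 5 were from the inhibitor library and 1 from the vehicle library. All 6 had Cnn1, their Acta2 level lay between 26032 and 36811 CPM, and their median depth was 14430 UMIs against 8585 in the other 59.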

How the data were processed

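The deposited UMI count matrices, 1 per library with 31053 genes listed, carry the version Cell Ranger 3.0.2 per the file headers. The submitters' processing notes list the mm10 build, Cell Ranger and also Seurat. The authors' counts are raw whole numbers. The kept barcodes held 38237741 UMIs in the inhibitor library and 29140689 in the vehicle library, and no cell annotation was used. The labels do not say whether barcodes come from separate animals.

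UMIs of the selected cells were summed per library and expressed as CPM. Intervals at 95% are exact Poisson for levels, exact conditional binomial for ratios and Clopper-Pearson for shares, and cover counting error only. A sum of 0 was set to a floor of 3 UMIs per summed group in ratios. Genes needed at least 100 UMIs over the sums compared, save in single ratios where the 3 vehicle cells were set apart. The 13 genes of the smooth muscle and pericyte rules were left out of the pericyte comparison. With 1 library per group no test was made. The members, gene lists and thresholds were chosen with earlier results of these data known. Named genes are the measured contractile and contraction control genes, the most abundant members of other lists, the 10 highest and 10 lowest ratios on each side, Hdac3 and the 5 genes most like Acta2 and Tagln; genes of the 3 vehicle cells outside this rule were chosen after their values were seen. Scrublet in scanpy 1.11.5 called 23 of 5145 kept barcodes (0.447%), too few to take as a working doublet call, and none was a member; no barcode was removed. A few genes of the lists are not reported here. The scripts were tested on simulated data with known ratios. Python 3.11.15, numpy 2.4.6, scipy 1.17.1, pandas 2.3.3, matplotlib 3.10.9, R 4.3.3 and edgeR 4.0.16 (for TMM factors as an alternative scaling) were used. Alternatives changed the cell filter, the member and pericyte rules, the low-count filter, the scaling, the weighting and depth of cells, and single cells.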

Additional observations from a re-analysis of the deposited data

How the results depend on the processing

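No paired analysis was possible because each group has 1 library, and for the same reason no replicate could be left out. Alternatives that leave out the 3 vehicle cells, the pericytes richest in S100a8, cells under 2000 UMIs or the top cell of a gene were chosen after seeing the data. Of the summary values under alternatives, 428 kept within the set limits and 37 moved. Of the values of single genes, 3283 kept within them, 170 moved and 7 turned direction; with thinning 87 moved, 2 turned and 175 did not. The cause was not tested where none is named. Genes at least 1.5-fold higher and lower with the inhibitor numbered 123 and 71 with cells thinned to 2000 UMIs. They numbered 417 and 464 with a filter of 20 UMIs (more genes tested), and 7 and 11 with 200 UMIs (fewer tested). Without the 3 vehicle cells 16 were lower, of 831 tested in place of 895. Over pericytes, 416 were higher and 749 lower with 20 UMIs, and 97 and 114 with 200 UMIs. The median log2 ratio of libraries for myosin genes was 0.30 with the stricter cell filter, 0.17 with the stricter member rule, −0.050 with each cell weighted alike, 0.21 thinned and 0.25 with 200 UMIs. With the stricter cell filter it was −0.16 for immediate-early and stress genes and 0.15 for mitochondrial genes; without the 3 cells it was 0.11 for interferon genes and −0.22 for mitochondrial genes. Over pericytes with the inhibitor, the anchor median was 1.63 with the stricter cell filter, 1.60 with cells weighted alike and 1.09 thinned, and the ion channel median 0.46 thinned, 0.43 with 20 UMIs and −0.89 with 200 UMIs (vehicle, 20 UMIs, 0.72). The immediate-early and stress median with the inhibitor was −0.67 with the looser member rule, −0.51 with cells weighted alike, −0.51 thinned and −0.64 with 20 UMIs, and with vehicle −0.30 under TMM factors. With vehicle the matrix median was 0.15 with the stricter cell filter and −0.88 without the 3 cells, and the mitochondrial median 0.64 with the stricter filter, 1.01 under TMM and 0.94 without the 3 cells. Log2 ratios that turned direction were Irf1 (−0.78) and Tpm4 (0.37) thinned, and, without the 3 vehicle cells, Cxcl1 (1.13), Meg3 (0.28), Isg15 (0.035), Tmem176b (0.26) and Tpm4 (0.21). Genes with under 100 UMIs over both libraries, Hdac3 among them, were too shallow to compare. Some ratios given with the 3 vehicle cells set apart also rest on under 100 UMIs.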

Other observations

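Some inflammatory and matrix genes were counted in few cells, and the genes given here were chosen after their values were seen. Fn1, which encodes fibronectin, had 51 UMIs in 5 inhibitor cells, with 18, 16 and 7 in the highest 3, and 8 UMIs in 4 vehicle cells. The chemokine gene Cxcl10 had 40 UMIs in the inhibitor library, 39 of them in 1 cell, and 4 UMIs in the vehicle library. The interferon-induced gene Ifi27l2a had no UMI in the inhibitor library and 50 UMIs in 5 vehicle cells, with 30 and 15 in the highest pair.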
